A study of Mus musculus with 2 samples.

Results

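The transcripts described here are those of 9 genes of blood stem and progenitor cells, namely Cd34, Kit, Flt3, Myb, Gata2, Meis1, Hoxa9, Mecom and Erg. They were chosen by name from a list of such genes and not by a measured value of this comparison, although earlier results of these data were known when the list was made. All 9 genes were among the 22180 genes that had at least 1 probe set naming no other gene. Where a gene had several such probe sets, the brightest on average was used.

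The study measured gene expression on 2 Affymetrix whole-transcript arrays, each holding spleen cells of Fx-/- mice. The gene targeted in them (current symbol Gfus) codes for an enzyme that makes GDP-fucose, the donor for fucosylated glycans, and Fx-/- animals can fill the gap only through fucose that is supplied to them. The on-fucose group (1 array) came from mice labelled fucose-treated, and the off-fucose group (1 array) from mice labelled as given no fucose treatment. Both groups share the Fx-/- genotype, the tissue and the cell type label cDC1, the type 1 conventional dendritic cell. Cells carrying B220 and CD11b were removed with beads and cells carrying CD11c were then kept, so the cells are an enrichment and not a purified type. Age, sex, strain background and the number of animals behind each array are not given in the sources used here. With 1 array per group there is no replicate error and no test, and every fold below compares these 2 arrays and not the conditions in general.

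Blood stem cells and early progenitors live mainly in the bone marrow and, in the mouse, also in the spleen, which can host blood formation. Surface receptors such as Kit and Flt3 receive growth factor signals that keep these cells alive and dividing, and CD34 marks many of them. A circuit of transcription factors, with Gata2, Erg, Meis1, Hoxa9, Mecom and Myb among them, keeps them immature and is turned down as they commit to a lineage. Several of these genes are also used elsewhere. Kit is used in mast cells, Gata2 in mast cells and basophils, and Flt3 in dendritic cells. Endothelial cells use Erg, Mecom and Cd34, and dividing blood cells of several kinds use Myb.

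Low intensities on an array do not reach zero, and a limit was needed below which a transcript cannot be told from background. The 1390 olfactory and vomeronasal receptor genes on the array, which sensory neurons use, had median log2 intensities of 2.41 on fucose and 2.45 off fucose. Their 95th percentile, 2.83 on fucose and 2.87 off fucose, was taken as the background limit.

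The cell type label was checked against its markers. All 9 measured conventional dendritic cell markers were above the background limit on both arrays, some of them narrowly. That limit was also passed by 11595 of all 22180 genes on fucose and by 11490 off fucose, so passing it does not settle the label. On fucose, Zbtb46 (2.84), Xcr1 (2.90), Tlr3 (2.95) and Cadm1 (3.04) were below the 99th percentile of the receptor genes (3.26), and the others were above it. Itgax, the CD11c gene, had log2 intensities of 3.83 on fucose and 3.86 off fucose. The cDC1 chemokine receptor gene Xcr1 had 2.90 and 3.43, Batf3, a factor that cDC1 need, had 4.58 and 5.49, and the lysosomal amidase gene Naaa had 5.97 and 8.36. All 8 measured T cell markers were above background as well, with Cd3e, a CD3 chain, at 10.97 and 10.55. These counts give no shares of cells, since levels of different probe sets cannot be ranked as transcript amounts. Gfus, the gene targeted in these mice, had 4.89 and 4.50, above background on both arrays. Which part of Gfus its probe set covers is not known here and no wild-type array was used, so the genotype cannot be checked from it. The arrays also differed in sex-linked transcripts, with Xist at 8.26 on fucose and 2.82 off fucose and the Y-linked Uty at 2.14 and 5.26. Xist was below the background limit off fucose, and Uty was below it on fucose. These sex-linked differences lie between the same arrays as the fucose treatment and cannot be told apart from it. Their part in the values below was therefore not tested and could not be tested with these arrays.

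Of the stem and progenitor cell genes, 4 were above the background limit on fucose (Kit, Flt3, Myb and Gata2) and 6 off fucose (those and Cd34 and Meis1), while Hoxa9, Mecom and Erg were above it on neither array. The same limits were passed by 11595 of all 22180 genes on fucose, by 11490 off fucose and by 12632 on at least 1 array. These counts therefore do not set the 9 genes apart. Off fucose, 3 of the 9 genes had at least 2-fold higher values, namely Cd34, Gata2 and Kit, and none had at least 2-fold lower values. Over all 22180 genes, 1.20% were higher by 2-fold or more and 0.257% lower by as much. At 1.5-fold, Flt3 joined them to make 4 of 9, against 3.21% of all genes (no member was 1.5-fold lower, against 2.28%), and at 3-fold Cd34 alone was left, against 0.532% of all genes. The median difference (the off-fucose log2 value minus the on-fucose one) was 0.58 over the 9 genes and -0.00080 over all genes. The threshold ran between close neighbours: Kit lay just inside it with a difference of 1.03 and Flt3 just outside with 0.94, values that 1 array per group cannot separate.

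**Figure D1:**
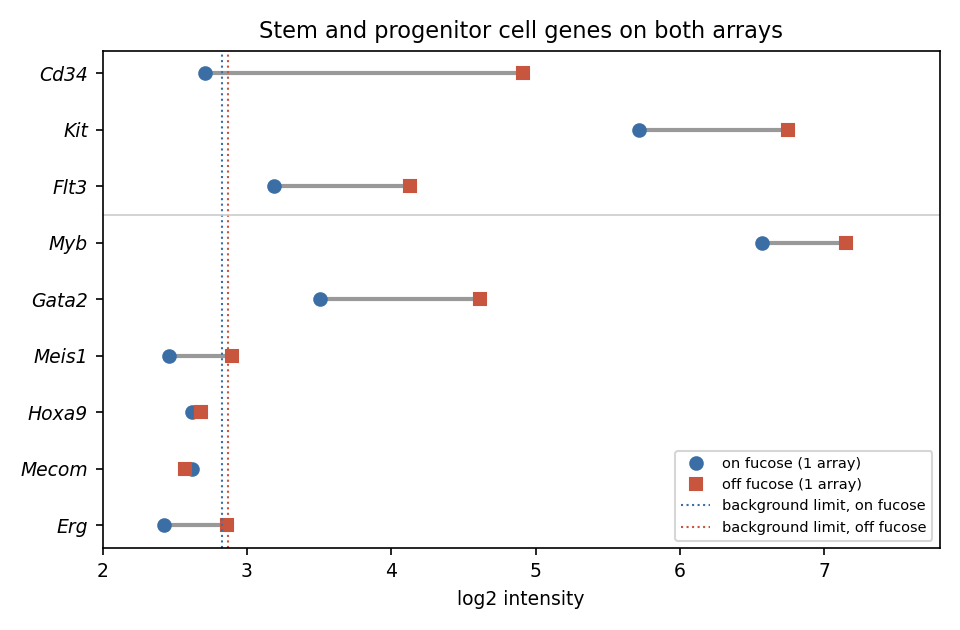
Log2 intensity (horizontal axis) of the 9 stem and progenitor cell genes on the on-fucose array (circles) and the off-fucose array (squares), 1 array each, with surface genes above the grey line and transcription factors below it. Dotted lines are the background limits of 2.83 and 2.87. Cd34 crosses the limit, Kit, Flt3, Myb and Gata2 lie above it on both arrays, Hoxa9, Mecom and Erg stay below it, and Meis1 is barely above it off fucose.

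Cd34 encodes a heavily glycosylated surface sialomucin of progenitor and endothelial cells. On the log2 scale its probe set (17221014) read 2.71 on fucose, below the background limit, and 4.91 off fucose, well above it. The fold is therefore a lower limit of at least 4.24 (2.08 on the log2 scale), taken against the background limit. The measured difference of 2.20 includes a value that cannot be told from background and is not ranked. A second probe set, which also names Gm16897, had 2.28 and 2.46 and was below the limit on both arrays, so the call on Cd34 rests on 1 probe set.

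Kit encodes the tyrosine kinase receptor for stem cell factor. It was measured above background on both arrays, at log2 values of 5.72 on fucose and 6.75 off fucose, which is 2.04-fold higher (rank 257 of 22180). Among the 1000 genes nearest to Kit in mean intensity, the central 95% of differences ran from -0.64 to 0.75, and 13 of them had a difference at least as high. Flt3, which encodes the receptor tyrosine kinase of early lymphoid and dendritic cell progenitors, had 3.19 on fucose and 4.13 off fucose (1.92-fold, rank 310). The same range for genes of its level was -0.71 to 1.32, and Flt3 lay inside it. The ranges describe how far genes of like level differ between these 2 arrays, from any source, and are not a test.

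Gata2, a zinc finger transcription factor that stem cells need to survive, read 3.50 on fucose and 4.61 off fucose on the log2 scale, which is 2.16-fold higher (rank 236 of 22180). Genes of like level spanned -0.79 to 1.45 in their central 95%, so Gata2, unlike Kit, lay within the common spread of its level despite the larger fold. Myb, which encodes the transcription factor that keeps progenitors dividing, had 6.57 on fucose against 7.15 off fucose (0.58 higher, rank 721), inside the range of -0.64 to 0.68 for genes of its level. The 9 genes are not ordered by level, since probe sets respond differently. A second Myb probe set near the limit had 2.86 and 3.11, a difference of 0.25 in the same direction.

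The other 4 transcription factors gave little or no signal. Meis1, a homeobox factor of stem cells, had 2.46 on fucose and 2.90 off fucose, the latter only 0.028 above the limit, so the bound on its fold was at least 1.05. Erg, an ETS factor that stem cells and endothelial cells share, had 2.43 and 2.86, with the off-fucose value just below the limit. The differences of Meis1 and Erg, 0.43 each, were inside the central 95% of the olfactory and vomeronasal receptor genes, which ran from -0.41 to 0.46. Against the 1000 genes nearest in level, Meis1 lay inside the central 95% (-0.39 to 0.45) and Erg just outside it (-0.38 to 0.43), with 24 of the 1000 at least as high as Erg. Hoxa9, a homeobox partner of Meis1, had 2.62 and 2.68. Mecom, the zinc finger factor also called Evi1 that long-term stem cells depend on, had 2.62 and 2.57, and its second probe set had 2.49 and 2.69. No fold is given for Erg, Hoxa9 or Mecom, since neither array placed them above background, and a low value does not show that the transcripts were absent.

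**Figure D2:**
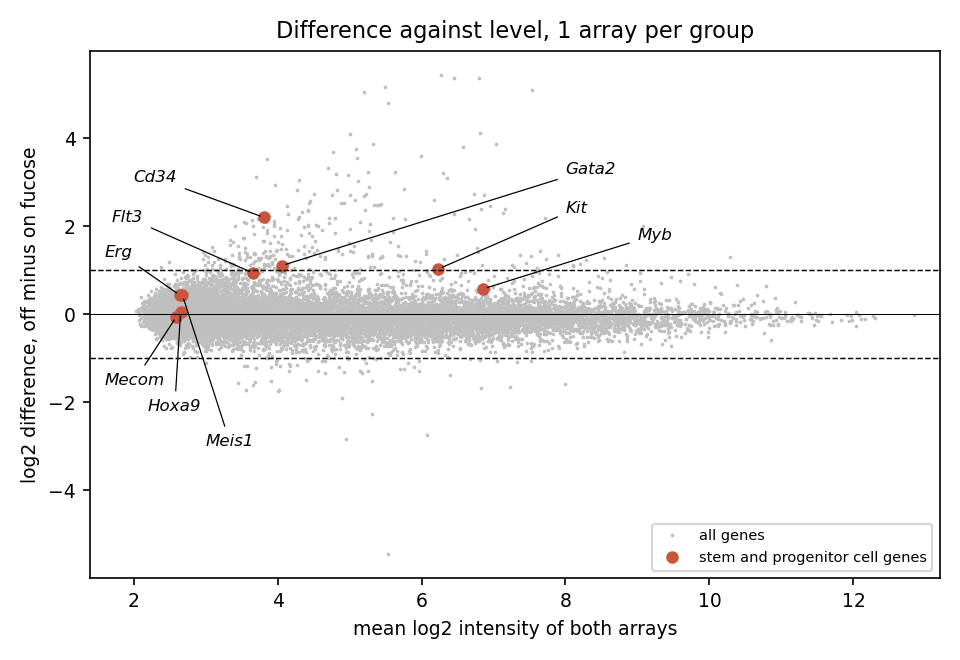
Log2 difference, off fucose minus on fucose (vertical axis), against mean log2 intensity of both arrays (horizontal axis) for 22180 genes (grey points) and the 9 stem and progenitor cell genes (red points), 1 array per group. Dashed lines mark 2-fold. Cd34 (2.20), Gata2 (1.11) and Kit (1.03) lie above the upper dashed line, and Hoxa9 (0.06) and Mecom (-0.05) lie in the dense band at the lowest intensities.

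The promoters of the 3 genes past 2-fold are shown because all 3 were higher on the same array. The 250 bases before each RefSeq transcription start (build GRCm38.p6) are printed on the gene's strand, and capitals mark the letters AGGAAG, a core that ETS factors such as Erg and Fli1 can bind, on either strand. All 9 genes matched the RefSeq promoter table by symbol, with 14 starts in all. Cd34 is at chr1:194938571-194938820 (plus strand), Kit at chr5:75574737-75574986 (plus strand, the more upstream of its starts), and Gata2 at chr6:88193641-88193890 for its distal start and chr6:88198414-88198663 for its proximal start (both plus strand).
Cd34: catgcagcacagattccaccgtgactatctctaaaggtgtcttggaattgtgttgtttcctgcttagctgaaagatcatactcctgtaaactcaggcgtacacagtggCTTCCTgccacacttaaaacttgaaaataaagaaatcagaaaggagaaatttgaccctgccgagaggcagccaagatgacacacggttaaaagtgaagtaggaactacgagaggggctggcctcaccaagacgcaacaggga
Kit: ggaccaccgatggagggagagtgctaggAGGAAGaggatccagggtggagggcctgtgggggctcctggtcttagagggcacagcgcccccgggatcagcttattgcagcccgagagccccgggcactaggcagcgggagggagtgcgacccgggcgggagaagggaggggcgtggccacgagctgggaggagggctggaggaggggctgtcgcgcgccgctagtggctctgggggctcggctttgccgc
Gata2 distal: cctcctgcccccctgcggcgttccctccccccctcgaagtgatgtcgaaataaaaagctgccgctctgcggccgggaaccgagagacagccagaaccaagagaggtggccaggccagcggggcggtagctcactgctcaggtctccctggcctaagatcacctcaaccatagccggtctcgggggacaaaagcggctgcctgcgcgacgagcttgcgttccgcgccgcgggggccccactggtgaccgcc
Gata2 proximal: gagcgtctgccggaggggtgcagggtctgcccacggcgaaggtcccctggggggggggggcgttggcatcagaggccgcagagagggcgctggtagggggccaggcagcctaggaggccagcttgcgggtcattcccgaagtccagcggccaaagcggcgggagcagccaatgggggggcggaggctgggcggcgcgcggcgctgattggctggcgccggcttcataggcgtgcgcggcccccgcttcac

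Cd34 held the ETS letters on the opposite strand (137 to 142 bases before the start) and Kit held them on its own strand (217 to 222 bases before it), while neither Gata2 window held them. The letters stood in 5 of the 14 windows of the 9 genes and in 29.5% of all 32851 windows of this length. The Kit windows overlap and hold the same match, which is counted in each of them. Of the other motifs searched on both strands, the GATA letters AGATAA stood in 1 of 14 windows (9.99% of all), the E-box letters CAGATG in 2 (14.4%) and the MEIS letters TGACAG in 2 (15.9%), and no match overlapped a match of another motif. The only GATA match was in an Erg window, one of the genes at background. The Cd34 window was 46.4% G and C, against 70.8% for Kit, 67.2% and 74.0% for Gata2 and a median of 52.4% over all windows. A match to such letters is a description of the sequence and not a binding site.

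Genes known for the long-term stem cell state were read from a further list. Of its 14 genes, 12 were measured, and none was at least 2-fold apart in either direction, with a median difference of -0.02 and a range of -0.42 to 0.34. Only 7 of the 12 were above the background limit on at least 1 array, and the examples are from these. Of the 7, only Mllt3 (8.69 on fucose and 8.60 off fucose) and Slamf1 (5.76 and 5.85) were well above it. The median of the list thus rests mostly on dim probe sets. Robo4, a guidance receptor of stem and endothelial cells, had 2.97 on fucose and 2.55 off fucose, Prdm16, a relative of Mecom, had 2.89 and 3.23, and the surface receptor gene Procr had 3.16 and 2.95. Angpt1, which encodes a ligand of the receptor Tek, had 2.59 and 2.87, the latter barely above the limit. The Hox cluster A genes and their cofactors had a median of -0.04 over 13 of 16 genes, none of them 2-fold apart, and 7 of the 13 were at background on both arrays. Among those above background on at least 1 array, the largest differences were -0.40 in Pbx2 and 0.22 in Pbx3, cofactors that bind DNA together with Hox proteins, followed by -0.19 in Pknox1 and 0.12 in Meis3.

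The genes that work with Gata2 and Erg in the stem cell circuit differed among themselves. Lyl1, a basic helix-loop-helix factor, read 2.90 on fucose against 4.26 off fucose on the log2 scale, which is 1.36 higher. The on-fucose value of Lyl1 was close to the limit of 2.83. The other 4 genes differed by between -0.15 and 0.21, with Tal1 at 3.15 and 3.36, Lmo2 at 3.31 and 3.17, Runx1 at 6.83 and 6.96, and Fli1, an ETS factor that T cells also use, at 9.26 and 9.20. The median of the list was 0.13, with 1 of 5 genes at least 2-fold higher.

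Among regulators of committed progenitors, 3 of 12 genes were at least 2-fold higher off fucose, none was 2-fold lower, and the median was 0.20. Gfi1b, a transcriptional repressor that erythroid and megakaryocyte cells use, had 3.65 on fucose and 6.87 off fucose (3.23). Cd93, a surface receptor of early progenitors and myeloid cells, had 2.93 and 4.98 (2.05), and the cell cycle kinase gene Cdk6 had 4.65 and 5.98 (1.34). The myeloid factor gene Spi1 had 2.87 and 3.69 (0.81) and lay within 2-fold. On fucose both Cd93 and Spi1 were close to the limit of 2.83.

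Genes of Kit and Flt3 signalling gave a median of -0.08 over 20 of 22 genes, with 1 at least 2-fold higher and none 2-fold lower. Sh2b2, an adaptor that binds Kit and other receptors, had 3.26 on fucose and 4.69 off fucose (1.44). Gab2, a docking protein downstream of Kit, had 3.12 and 4.11 (0.99), the transcription factor gene Stat5a had 4.74 and 5.18 (0.44), and the Src family kinase gene Fyn, which T cells also use, had 7.93 and 7.48 (-0.45). The stem cell factor gene Kitl, at 2.60 and 2.55, was below the background limit on both arrays, and Flt3l had no probe set of its own. Kitl is named here outside the rule for named genes, as the ligand of Kit.

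Among close relatives of the 9 genes, 2 of 14 measured were at least 2-fold higher off fucose, with a median of 0.15. Mybl2, a Myb relative of dividing cells, had 3.53 on fucose and 5.56 off fucose (2.03). Csf1r, the macrophage growth factor receptor of the same kinase class as Kit and Flt3, had 2.84 and 4.26 (1.42). Its on-fucose value was only just above the limit of 2.83. Gata3, the T cell member of the Gata family, had 5.40 and 4.79 (-0.61), opposite in sign to Gata2, and the ETS factor gene Ets2 had 5.23 and 5.72 (0.49).

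**Figure D3:**
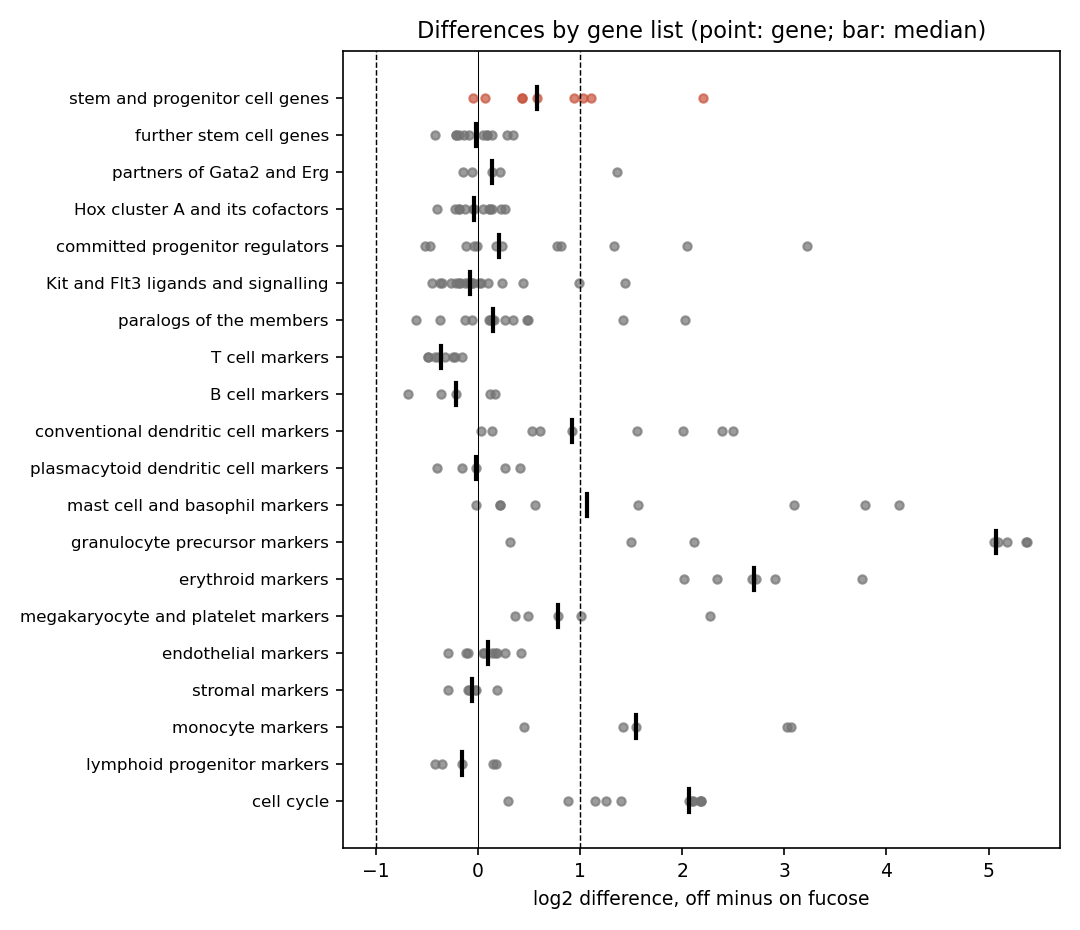
Log2 difference, off fucose minus on fucose (horizontal axis), for each measured gene (points) of the 9 stem and progenitor cell genes (red) and of the other gene lists (grey), with the median of each list as a bar and dashed lines at 2-fold. The medians run from -0.36 for T cell markers to 5.07 for granulocyte precursor markers, and the 9 genes have 0.58.

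Markers of cell types that use some of the same genes differed between the arrays, and their part in the values of the 9 genes was not tested. In such mixed samples, more cells of a type and more RNA per cell cannot be told apart. Mast cell and basophil markers go with Gata2, and those of mast cells also with Kit. Of the 8 measured genes of this list, 4 were at least 2-fold higher off fucose. The intensities of the list summed to 115 on fucose and 1114 off fucose. The basophil proteases Prss34 and Mcpt8 had differences of 4.12 and 3.79, and the carboxypeptidase Cpa3 had 3.09. Fcer1a, a chain of the IgE receptor, was at least 2.45-fold higher. Ms4a2 had a measured difference of 0.21. Cma1 and Hdc were below the background limit on fucose, so their folds are given as at least 1.05 and 1.41. Tpsb2 was below the limit on both arrays. Conventional dendritic cell markers, which go with Flt3, were at least 2-fold higher in 4 of 9 genes, with summed intensities of 169 and 610, and Irf8 (2.50), Naaa (2.39), Tlr3 (2.01) and Wdfy4 (1.56) had the largest differences. Zbtb46, which marks conventional dendritic cells, had 2.84 and 2.98.

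Cell cycle genes, which go with Myb and Mybl2, were at least 2-fold higher in 9 of 11 genes, with summed intensities of 431 and 1199 and a median of 2.06. Ccna2, Plk1 and Mki67 had differences of 2.18, 2.18 and 2.17, and Birc5 was at least 3.38-fold higher. Endothelial markers, which go with Erg, Mecom and Cd34, had summed intensities of 63.5 and 67.9, with none of 10 genes 2-fold apart and a largest difference of 0.42, in Egfl7. Of these 10 genes, 5 were below the background limit on both arrays, and Cdh5, Cldn5 and Emcn were among those below it off fucose. Among endothelial markers above background on at least 1 array, the next largest differences were Plvap at 0.27, Kdr at 0.18 and Tie1 at 0.17.

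Markers of the granulocyte, erythroid and megakaryocyte lineages, which progenitors give rise to, were mostly higher off fucose as well. Lists of lymphoid cells, which progenitors also give rise to, were not. Their medians were -0.36 for T cell, -0.21 for B cell and -0.15 for early lymphoid markers. The granulocyte precursor list had a median of 5.07, 7 of 8 genes were at least 2-fold higher, and it had summed intensities of 99.4 and 2903. Its largest differences were in the granule protein genes Elane (5.38), Ctsg (5.37), Prtn3 (5.18) and Mpo (5.09). Prtn3 was close to the limit of 2.83 on fucose, at 2.90. The erythroid list had a median of 2.70, all 6 measured genes were at least 2-fold higher, and its sums were 69.8 and 490, with Slc4a1 at 3.76, Car2 at 2.91, Rhag at 2.72 and Ermap at 2.69. Megakaryocyte and platelet markers had a median of 0.78 over 5 genes, 2 of them at least 2-fold higher, with sums of 60.0 and 118. Ppbp had a difference of 2.27 there, Itga2b 0.78 and Gp9 0.49, and Pf4, counted by its measured difference of 1.01, was at least 1.57-fold higher. Early lymphoid markers could hardly be read, since 3 of the 5 measured were above background on neither array. Of the others, the DNA polymerase gene Dntt had 2.99 on fucose and 2.56 off fucose, and Il7r, which T cells also carry, had 9.87 and 9.52.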

How the data were processed

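RNA (9 ng per array, per the labels) from spleen cells of Fx-/- mice was hybridised to 2 arrays, 1 per group. The authors deposited a table of intensity values for 41345 probe sets, which RMA had summarised and normalised according to the submitters' processing notes. Its settings and build are not given in the sources used here. Log2 values are usual for RMA, but these ran from 2.74 to 9512, so they were read as linear intensities and log2 was taken. The distributions of both arrays were nearly equal, so a shift of all genes would not be visible.

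Gene names came from the platform annotation: 23521 probe sets had 1 symbol and were used, 1814 had several, and 16010 were not listed. A RefSeq table (GRCm38.p6), matched by Entrez ID, held 23328 of the former with the same symbol, all 9 genes among them. No test was possible without replicates, and arrays have no read depth: their number limits the precision. The 9 genes and all lists were chosen with earlier results of these data known. From each list, up to 4 genes above the background limit on at least 1 array, with the largest differences in size, were named, and the 3 genes nearest to Cd34. Xist, Uty, Batf3, Cadm1, Ms4a2, Cma1, Hdc, Mllt3, Slamf1 and some genes at background were named after their values were seen. The gene table and the counts were tested on simulated data. The simulation changed only bright genes and by more than 2-fold, so it does not cover dim genes or differences near the threshold. Alternatives were the mean of probe sets, quantile normalisation, median centring, loess (span 0.3), centring on the T cell list, a pseudocount of 16, other fold thresholds and other background percentiles. Python 3.11.15, pandas 2.3.3 and statsmodels 0.14.6 were used.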

Additional observations from a re-analysis of the deposited data

How the results depend on the processing

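No paired analysis was possible because there was 1 array on fucose and 1 off fucose, which also leaves no array to omit. Cd34, Kit and Gata2 were at least 2-fold higher with quantile normalisation and with loess. Over all 22180 genes, 290 and 303 were at least 2-fold higher under these settings, against 266 in the main analysis. These 3 genes also stayed past 2-fold with the mean of probe sets, which could not change them, since each had 1 probe set of its own. The same held for median centring, which moved every gene only by the median of all genes (-0.0008). Centring on the T cell list (median -0.36) made the count 4 with Flt3, raised the median of the 9 genes to 0.94, and turned Mecom to 0.31. It moved the median of all genes to 0.36 and the share of 2-fold calls that were higher from 82.4% to 97.1%. Under this centring 605 of all genes were at least 2-fold higher, so the count of 4 stands against a larger background. The medians of the further stem cell genes and of the Hox list became 0.34 and 0.32 under it. With a pseudocount of 16, only Cd34 (1.03) stayed past 2-fold, a count of 1, with Kit at 0.85 and Gata2 at 0.57, and the count was also 1 at a 3-fold threshold. Of all genes, 116 were at least 2-fold higher with this pseudocount. A pseudocount shrinks the difference of dim genes by construction. Over the 6 genes above the background limit the median was 0.99, which leaves out only the dim genes and cannot support a difference. Mecom had 0.07 with the mean of its probe sets. At background limits of the 90th and 99th percentile, 7 and 5 of the 9 genes were above it on at least 1 array. None of the 9 genes was 2-fold lower under any of these settings. Signal over background limits what can be said of Meis1, Hoxa9, Mecom and Erg.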

Other observations

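The 3 genes nearest to Cd34 in their pair of log2 intensities (Euclidean distance over 2 arrays) were the inhibitory lectin receptor gene Clec12a, with 2.78 on fucose and 4.89 off fucose (distance 0.074), Tifab, with 2.64 and 4.80 (0.13), and the transcription factor gene Klf4, with 2.81 and 4.79 (0.16). Like Cd34, these were below the background limit on fucose and above it off fucose. With 2 arrays such closeness says only that the values are alike.

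Other cell type lists were read beside the 9 genes. Of the monocyte markers, 4 of 5 were at least 2-fold higher off fucose, with F13a1 at least 7.98-fold higher, Lyz2 at 3.03, Ccr2 at 1.55 and Csf1r at 1.42. Csf1r was only just above the limit on fucose. B cell markers had a median of -0.21 over 5 genes, with Cd79a at 3.21 on fucose and 2.53 off fucose, and the plasmacytoid dendritic cell list had -0.02 over 5 genes, with Tcf4 at 3.58 and 3.99. Stromal markers had summed intensities of 39.2 and 37.6, and 4 of 6 were below the background limit on both arrays. All 8 measured T cell markers were lower off fucose by 0.16 to 0.50.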
